A study of Mus musculus with 10 samples.

Results

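The 10 genes examined here encode proteins that neutrophils store in granules or hold in the cytosol. They were measured by RNA sequencing in the thymus of mice with 1 or both alleles of Usp7 knocked out. The members are the primary granule genes Mpo and Elane, the secondary and tertiary granule genes Lcn2, Ltf, Camp, Ngp and Mmp8, the cytosolic genes S100a8 and S100a9, and the late gene Retnlg. They were taken by symbol from a table of 35375 features. All 10 passed the filter on low counts, as 19511 features did. Lcn2, Ltf and S100a8 were chosen by their measured values, a large rise in homozygous KO, so the values of the members in the homozygous comparisons are a description and carry no test.

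Neutrophils make their granules one after another while they mature in the bone marrow. Promyelocytes make the primary (azurophil) granules with myeloperoxidase and elastase, myelocytes and metamyelocytes make the secondary (specific) granules with lactoferrin and lipocalin 2, and gelatinase granules follow. Transcription of the primary genes has largely ended when transcription of the secondary genes begins, so the 2 classes mark different ages of the cell. In a healthy thymus neutrophils are a minor population among a very large excess of thymocytes.

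Usp7 (Hausp) encodes a deubiquitinating enzyme. The libraries came from whole thymus of C57BL/6J mice 3 days after birth, with ribosomal RNA removed and a stranded kit. Per the labels, Usp7 was deleted in the hematopoietic system, on both alleles in homozygous KO (n = 3 animals) and on 1 allele in heterozygous KO (n = 3 animals), and the wild-type group had n = 4 animals. The cre transgene that drives the deletion is not named in the sources used here. The series states that 2 wild types carried cre and 2 did not, without saying which. The 4 wild types have 2 title forms, wild type 1 and 2 with 2 wt words and wild type 3 and 4 with 1, and the table's column names add the word het for the last 2. The group of the title was kept, and results that depend on the kind of wild type are given with each.

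Libraries held 39.8 and 41.0 M counts in wild type 1 and 2 and 86.4 and 81.0 M in wild type 3 and 4. The heterozygotes had 90.5 to 97.4 M and the homozygotes 92.3 to 122 M. A count of 0 allows up to 3 counts, which is 0.0260 to 0.0737 CPM (counts scaled by TMM to a common library size) depending on the library. These limits cover counting error only. Usp7 itself was at 303 to 422 CPM in homozygous KO, 472 to 516 CPM in heterozygous KO and 589 to 676 CPM in wild type, and the 3 groups did not overlap. Wild type 1 and 2 were at 676 and 670 CPM and wild type 3 and 4 at 594 and 589 CPM. Homozygous KO differed from wild type by -0.74 on the log2 scale (SE 0.11, adjusted p 0.000525 in edgeR's quasi-likelihood test over all genes). Heterozygous KO differed from wild type by -0.34 (SE 0.11, adjusted p 0.608 in the same test) and was not called. In that comparison 8.69% of all genes had groups without overlap. The thymocyte list (Cd3e, Cd4, Cd8a, Rag1 and others) summed to 9337 CPM or more in every library. Of its 10 genes, 3 rose (Cd8a, Lck and Trbc1) and 1 fell (Rag1) in homozygous KO against wild type. Over all genes 12.5% were called higher and 13.2% lower in that comparison.

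The stretches in front of 5 of the members are shown because they stand for both granule classes. The pattern of Mpo, described below, is not among them. Ltf, Ngp and Mmp8 are secondary or tertiary granule genes, S100a9 is cytosolic, and Elane is a primary granule gene whose groups overlapped. Each run ends at the base before the RefSeq start or before the first GENCODE exon, whichever comes first, and reads along the strand of its gene, and capitals mark TTNNGNAA on either strand, a short form of the motif bound by C/EBP factors, which drive granulocyte genes. Sequences are from RefSeq, build GRCm38.p6.
Ltf, chr9:111019042-111019270, plus strand: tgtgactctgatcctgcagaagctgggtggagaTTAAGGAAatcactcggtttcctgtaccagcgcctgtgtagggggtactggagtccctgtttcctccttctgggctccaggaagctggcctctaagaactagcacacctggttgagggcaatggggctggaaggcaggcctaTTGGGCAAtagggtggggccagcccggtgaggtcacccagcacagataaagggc
Ngp, chr9:110419558-110419746, plus strand: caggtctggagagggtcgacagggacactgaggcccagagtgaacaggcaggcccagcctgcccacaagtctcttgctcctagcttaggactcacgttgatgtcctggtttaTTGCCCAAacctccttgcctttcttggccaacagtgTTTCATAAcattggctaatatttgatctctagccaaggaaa
Mmp8, chr9:7558179-7558428, plus strand: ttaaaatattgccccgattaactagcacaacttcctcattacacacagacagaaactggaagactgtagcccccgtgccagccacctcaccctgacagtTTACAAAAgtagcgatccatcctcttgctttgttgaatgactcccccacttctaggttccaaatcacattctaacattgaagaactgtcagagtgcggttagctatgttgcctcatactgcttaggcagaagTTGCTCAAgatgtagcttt
S100a9, chr3:90695722-90695971, minus strand: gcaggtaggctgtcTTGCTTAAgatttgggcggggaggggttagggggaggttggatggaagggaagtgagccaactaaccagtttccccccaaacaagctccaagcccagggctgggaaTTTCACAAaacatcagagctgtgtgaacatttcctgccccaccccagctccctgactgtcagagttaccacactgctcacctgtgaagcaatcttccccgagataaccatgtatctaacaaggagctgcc
Elane, chr10:79886062-79886246, plus strand: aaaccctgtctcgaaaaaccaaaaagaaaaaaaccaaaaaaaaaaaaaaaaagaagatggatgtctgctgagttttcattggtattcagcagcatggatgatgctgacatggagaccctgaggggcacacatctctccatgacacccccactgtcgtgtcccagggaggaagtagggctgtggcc

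All 10 members matched a promoter entry. In the 250 bases before the RefSeq start, TTNNGNAA occurred in 7 of 10 members and in 36.8% of 32851 promoters. The members without it were Camp, Mpo and Elane. These windows were not trimmed at GENCODE exons, unlike the runs above. Only 0 bases of the Lcn2 window, 47 of Mpo and 89 of Camp lie before the first GENCODE exon. AGGAAG, the core bound by ETS factors such as PU.1, occurred in 7 of 10 members against 29.5% of promoters, searched on both strands. CCAAT occurred in 4 of 10 against 33.8%, and TATAAA in 1 of 10 against 12.4%. Matches of different motifs may share bases, and a match is a description of letters only.

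Lcn2 and Ltf had the largest log2 fold changes of the members in homozygous KO against wild type. Lcn2 (chromosome 2, 32384633 to 32388252, minus strand, GRCm38) encodes lipocalin 2, which binds the iron carriers of bacteria. It was at 4.43, 28.8 and 16.6 CPM in the homozygous KO libraries, at 0.650, 0.398 and 0.719 CPM in heterozygous KO and at 1.35, 0.409, 0.506 and 1.03 CPM in wild type. Every homozygous KO library was above every other library, and heterozygous KO and wild type overlapped. The homozygous KO mean was 16.6 ± 12.2 CPM (SD, n = 3), that of heterozygous KO 0.589 ± 0.169 CPM (SD, n = 3) and that of wild type 0.823 ± 0.444 CPM (SD, n = 4). The log2 fold change against wild type was 4.35 (SE 0.58), a 20.3-fold difference.

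Ltf (chromosome 9, 111019271 to 111042767, plus strand) encodes lactoferrin, the iron-binding protein of specific granules. It was at 11.7, 63.6 and 35.6 CPM in homozygous KO, 2.21, 1.11 and 1.31 CPM in heterozygous KO and 4.57, 1.54, 1.2 and 2.84 CPM in wild type. Again the 3 homozygous KO libraries stood above the other 7. The log2 fold change was 3.89 (SE 0.57) against wild type and 4.58 (SE 0.65) against heterozygous KO.

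Camp encodes the cathelicidin antimicrobial peptide. Its level was 3.86, 15.9 and 7.94 CPM in homozygous KO, 0.960, 0.440 and 0.479 CPM in heterozygous KO and 1.45, 0.626, 0.495 and 0.859 CPM in wild type, with a homozygous log2 fold change of 3.46 (SE 0.50) against wild type. Ngp, the neutrophilic granule protein, is a cystatin-like relative of cathelicidin. It was at 13.3, 64.8 and 29.1 CPM in homozygous KO, 3.14, 1.45 and 1.94 CPM in heterozygous KO and 4.86, 2.96, 1.35 and 3.17 CPM in wild type, and its log2 fold change was 3.56 (SE 0.53). For both genes the homozygous KO values lay above all others, and wild type 1 was the highest wild type.

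Mmp8 encodes neutrophil collagenase. It had few reads outside homozygous KO. Its level was 0.798, 4.74 and 3.55 CPM in homozygous KO, 0.290, 0.0837 and 0.131 CPM in heterozygous KO and 0.246, 0.313, 0.0225 and 0.302 CPM in wild type. Wild type 3 held 2 reads of it, which is under the floor of 3 counts. The log2 fold change was 3.84 (SE 0.73) against wild type.

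S100a8 and S100a9 encode the 2 subunits of calprotectin, the main calcium-binding protein of the neutrophil cytosol, and are neighbours on chromosome 3. S100a8 was at 9.73, 65.6 and 29.0 CPM in homozygous KO, 1.57, 0.90 and 1.31 CPM in heterozygous KO and 4.89, 1.54, 0.911 and 2.96 CPM in wild type. S100a9 was at 12.8, 70.2 and 29.4 CPM, then 2.68, 1.42 and 1.74 CPM, then 5.60, 2.07, 1.60 and 3.39 CPM in the same order of groups. Both had every homozygous KO library above the other 7. The log2 fold changes against wild type were 3.78 (SE 0.63) for S100a8 and 3.59 (SE 0.55) for S100a9, and against heterozygous KO they were 4.79 (SE 0.74) and 4.26 (SE 0.63).

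Retnlg encodes resistin-like gamma, a secreted protein of mature neutrophils. It was at 0.495, 3.27 and 2.76 CPM in homozygous KO, 0.0800, 0.0628 and 0.272 CPM in heterozygous KO and 0.123, 0.481, 0.135 and 0.399 CPM in wild type. The lowest homozygous KO library was only just above the highest wild type. Its log2 fold change of 2.94 (SE 0.69) was the smallest of the 8 genes described so far, and it was 2.10 with the animal number (44 to 51 or 56 to 63) as a block. Its call was lost when wild type 3 and 4 were the only controls (log2 fold change 3.02) and when wild type 1 and 2 were (log2 fold change 2.83).

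The primary granule genes had another pattern. Mpo (myeloperoxidase, chromosome 11) was at 0.139, 2.15 and 0.0665 CPM in homozygous KO, 0.920, 0.555 and 0.316 CPM in heterozygous KO and 1.23, 1.76, 1.80 and 1.69 CPM in wild type. Homozygous KO replicate 2 was the highest of all 10 libraries and the other 2 homozygous KO libraries were the lowest. Against wild type the homozygous log2 fold change of -1.04 (SE 0.86) was not called. Without homozygous KO replicate 2 it was -3.93 (SE 0.52) and was called lower, and against heterozygous KO it turned from 0.39 (SE 0.91) to -2.49 (SE 0.51), also called. Mpo overlaps the antisense feature Gm11505 on the opposite strand, and whether reads were counted by strand is not given in the sources used here, so its count is uncertain to that extent.

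Elane (neutrophil elastase, chromosome 10) had few reads. There were 8, 53 and 2 reads in the homozygotes, 5, 17 and 2 in the heterozygotes and 18, 12, 3 and 8 in the wild types. In CPM these were 0.0694, 0.518 and 0.0222, then 0.050, 0.178 and 0.0218, then 0.442, 0.289, 0.0338 and 0.0967. The groups overlapped fully, and the log2 fold change against wild type was 0.04 (SE 1.02), so no difference was detectable at this depth. Homozygous KO replicate 2 was again the highest library.

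**Figure D1:**
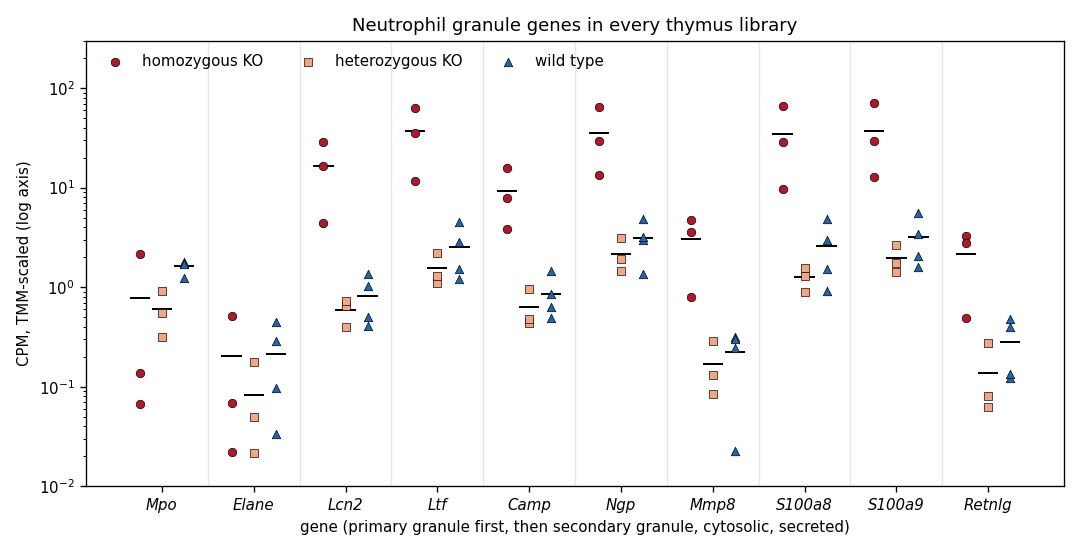
Level of each of the 10 genes in every library, in TMM-scaled CPM on a log axis, with circles for homozygous KO (n = 3), squares for heterozygous KO (n = 3), triangles for wild type (n = 4) and a bar at each group mean. In 8 genes the 3 homozygous KO circles sit above all other libraries, and in Mpo and Elane the groups of homozygous KO and wild type overlap.

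Counted together, 8 of 10 members were called higher in homozygous KO against wild type and 0 lower, at a Benjamini-Hochberg adjusted p under 0.05 over all 19511 genes. In this comparison 25.8% of all tested genes were called, 12.5% higher and 13.2% lower. The same 8 had groups that did not overlap, as did 32.7% of all genes. Nothing is read from these counts, because the choice of members used this comparison. With library totals as the only scaling, 29% of all calls were higher in place of 48.6%, and the median over all genes moved from -0.01 to -0.11. The median of the 10 members was 3.57, and the folds of the 8 genes ran from 7.66 for Retnlg to 20.3 for Lcn2. Homozygous KO replicate 2 carried part of these sizes. Without it the log2 fold change was 3.69 for Lcn2, 3.24 for Ltf, 2.93 for S100a8, 2.75 for S100a9, 2.81 for Camp and 2.80 for Ngp, and all stayed called.

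Against heterozygous KO, 8 of 10 members were called higher and 0 lower, beside 17.1% of all genes called, 7.63% higher and 9.5% lower. The groups of the same 8 did not overlap, as in 33.3% of all genes. With library totals alone 26.9% of all calls were higher in place of 44.6%. The same homozygous KO libraries enter this comparison and the one against wild type, so the counts are not independent of each other. The largest log2 fold change was again that of Lcn2, 4.81 (SE 0.66), and the smallest among the 8 genes was that of Camp, 3.88 (SE 0.56). Mmp8 had 4.15 (SE 0.81), or 4.79 without heterozygous KO replicate 1, and Retnlg 3.97 (SE 0.80), or 4.89 without heterozygous KO replicate 3.

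**Figure D2:**
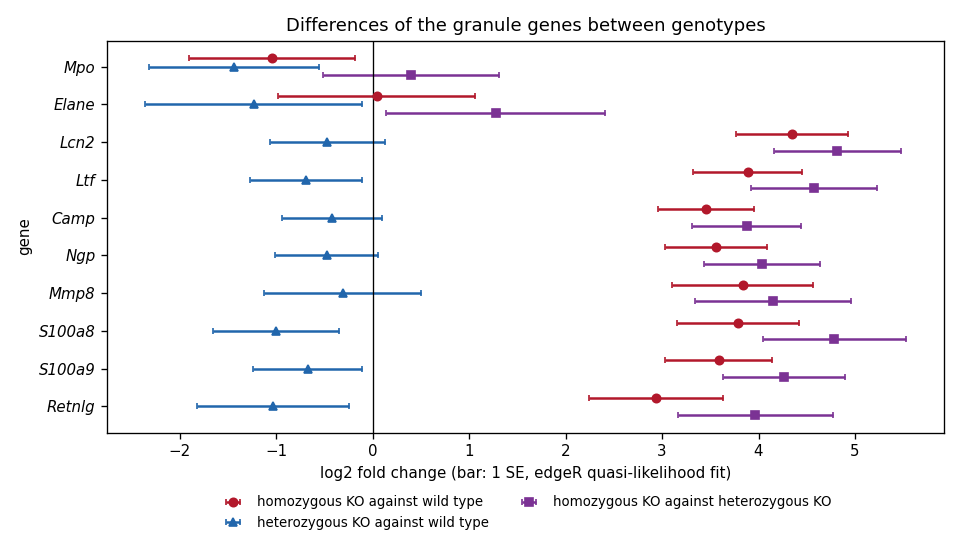
Log2 fold change of each gene in the 3 comparisons, with a bar of 1 SE from the edgeR quasi-likelihood fit over 10 libraries. Differences of 8 genes in homozygous KO lie between 2.94 and 4.81, those of Mpo and Elane lie between -1.04 and 1.28 with wide bars, and all 10 points of heterozygous KO against wild type lie below 0.

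The difference between heterozygous KO and wild type was not used to choose the members, so it was tested. The rise by which Lcn2, Ltf and S100a8 were chosen was read against the same wild types. For these 3 genes the values below are therefore not free of that choice. None of the 10 members was called in edgeR (0 of 10, beside 0.0154% of all genes, 3 of 19511), 0 of 10 had an unadjusted p under 0.05 where 7.28% of all genes did, and DESeq2 also called 0 of them and 58 genes in all. All 10 log2 fold changes were below 0, with a median of -0.68 beside -0.01 over all genes. These 10 values share libraries and are not independent. For Lcn2 the log2 fold change was -0.47 (SE 0.60, adjusted p 0.915, 95% interval -1.79 to 0.85) and for Ltf it was -0.69 (SE 0.58, adjusted p 0.860, 95% interval -1.96 to 0.58). S100a8 had -1.0 (SE 0.66, adjusted p 0.799, 95% interval -2.45 to 0.44) and S100a9 -0.68 (SE 0.56, adjusted p 0.859, 95% interval -1.91 to 0.56). The intervals leave room for a fall of several fold and for a smaller rise, so the data do not show that heterozygous KO and wild type are alike.

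Mpo had the lowest value of the 10, -1.44 (SE 0.88, adjusted p 0.783, 95% interval -3.37 to 0.49). Its 3 heterozygous KO libraries, at 0.316 to 0.920 CPM, all lay below its 4 wild types, at 1.23 to 1.80 CPM. It was the only member of 10 whose heterozygous KO and wild-type values did not overlap, and 8.69% of all genes had no overlap in this comparison. The other secondary genes Camp, Ngp and Mmp8 had -0.42, -0.48 and -0.31, Elane had -1.23 and Retnlg -1.03, with adjusted p from 0.843 to 0.955. With 1 library left out the value of Elane ran from -2.41 (without heterozygous KO replicate 2) to -0.58 (without wild type 1), and that of Retnlg from -1.96 (without heterozygous KO replicate 3) to -0.68 (without heterozygous KO replicate 2).

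Within homozygous KO the 8 genes varied together. In each of the 8 the order of the animals was the same, replicate 2 above replicate 3 above replicate 1, and the highest library exceeded the lowest by 4.12-fold for Camp to 6.75-fold for S100a8. Wild type 1 was the highest wild type in 6 of the 8 and heterozygous KO replicate 1 the highest of its group in 6 of the 8. After the group means were taken off, the 15 pairs among Lcn2, Ltf, S100a8, S100a9, Camp and Ngp had Pearson r from 0.841 to 0.988 over the 10 libraries. With Mmp8 and Retnlg, which have few reads outside homozygous KO, the lowest of 28 pairs was 0.323. These r are descriptions, and the points share their library, depth and composition.

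Summed over the 10 genes, the libraries were at 57.3, 319.5 and 154 CPM in homozygous KO, 12.5, 6.59 and 8.23 CPM in heterozygous KO and 24.8, 12.0, 8.06 and 16.7 CPM in wild type. The lowest homozygous KO library was thus above the highest wild type. In a bulk sample more cells of a type and more RNA per cell cannot be told apart, and this holds for every level given here.

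Levels of different genes were compared per kilobase of exon. In homozygous KO the order was S100a9 (71.7 CPM per kb), S100a8 (50.1), Ngp (29.2), Camp (12.2), Ltf (10.7), Lcn2 (6.33), Retnlg (3.67), Mmp8 (1.25), Mpo (0.229) and Elane (0.207). Each gene was ahead of the next in 3 of 3 libraries, apart from Mpo, which was ahead of Elane in 1 of 3. In wild type the first 5 came in the same order, from S100a9 (6.06 CPM per kb) to Ltf (0.736), while Mpo (0.473) stood above Lcn2 (0.314) in 3 of 4 libraries and Mmp8 (0.0911) was last. Retnlg (0.480) was ahead of Mpo in 2 of 4 libraries, so these 2 neighbours were not separated.

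The other genes of the granule program were read from 4 lists of 58 genes that hold no member, covering azurophil genes, specific and gelatinase genes, mature neutrophil genes and transcription factors of granulopoiesis. Of the 53 that were tested, 21 rose and 9 fell in homozygous KO against wild type, beside 12.5% and 13.2% of all genes. Their median log2 fold change was 0.41, beside -0.01 over all genes. With wild type 3 and 4 as the only controls, 19 of them were called in place of 30. Low genes among them, such as Fcnb, Fpr1, Trem1 and Cebpe, passed the filter on low counts only through their homozygous KO libraries. For such genes a rise was partly the condition for being tested, so their calls and adjusted p are a description. The counts for the lists below carry the same limit. Without the filter 31 of all 58 were called, in either direction. In heterozygous KO against wild type 0 of 53 were called by edgeR, 2 had an unadjusted p under 0.05 (Clec4e and Stfa2l1, named after their values were seen), and DESeq2 called 1.

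Of the 15 other specific and gelatinase granule genes tested, 7 rose and 1 fell, beside 12.5% and 13.2% of all genes. The other 7 were not called, and the median log2 fold change of the 15 was 0.30. Olfm4 (olfactomedin 4, present in a subset of neutrophils) was at 4.14, 11.8 and 11.3 CPM in homozygous KO and 0.236 to 0.722 CPM in wild type (log2 fold change 4.09, SE 0.41, adjusted p 4.82e-05). Cd177, a surface protein stored in specific granules, was at 1.71, 11.4 and 7.10 CPM against 0.120 to 0.565 CPM (log2 fold change 4.03, SE 0.58, adjusted p 0.00053), and 3.42 without homozygous KO replicate 2. Fcnb (ficolin B) was at 0.816, 2.48 and 0.776 CPM, while wild type 2 and 4 held none and wild type 1 was at 0.123 CPM. Its log2 fold change of 5.67 (SE 0.91, adjusted p 0.00105) became 7.81 without wild type 1 and 4.88 without homozygous KO replicate 2. Chil3 rose by 3.73 (SE 0.64, adjusted p 0.00168) and Mmp9 (gelatinase B) by 1.70 (SE 0.32, adjusted p 0.00273) on the log2 scale. Mmp25, a membrane-bound matrix metalloproteinase, fell from 2.10 to 2.64 CPM in wild type to 0.121, 0.469 and 0.466 CPM, a log2 fold change of -2.82 (SE 0.39, adjusted p 0.000398). The 3 genes of this list with the highest CPM, Cyba, Lyz2 and Itgam, which macrophages also express, were not called, with log2 fold changes of -0.07, 0.30 and 0.27 and adjusted p of 0.485, 0.50 and 0.436.

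Among the other azurophil genes 0 of 6 tested rose and 3 fell, beside 12.5% higher and 13.2% lower of all genes. With 6 genes a count of 0 is not told apart from that share. Those that fell were Srgn (the proteoglycan serglycin, log2 fold change -0.42, SE 0.11, adjusted p 0.0188), Ctsc (cathepsin C, -0.31, SE 0.07, adjusted p 0.00818) and Prss57 (-0.40, SE 0.09, adjusted p 0.0103). Other blood cells also express Srgn and Ctsc. The call of Srgn was lost without homozygous KO replicate 1 (-0.31, adjusted p 0.0547) or replicate 3 (-0.37, adjusted p 0.0683). Prtn3 (proteinase 3) was at 0.243, 1.34 and 0.100 CPM in homozygous KO and 0.0338 to 0.337 CPM in wild type. It had a log2 fold change of 1.39 (SE 0.92, adjusted p 0.305), which was -0.30 without homozygous KO replicate 2. Ctsg (cathepsin G), too low to be tested, was at 0.0694, 0.626 and 0.0111 CPM in homozygous KO and 0.0225 to 0.265 CPM in wild type. In Prtn3 and Ctsg, as in Mpo and Elane, homozygous KO replicate 2 was the highest of the 10 libraries.

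Genes of mature neutrophils were higher in 12 of 23 tested and lower in 3, beside 12.5% and 13.2% of all genes. Csf3r, the receptor of granulocyte colony-stimulating factor, was at 1.10, 6.14 and 2.26 CPM in homozygous KO and 0.556 to 0.835 CPM in wild type (log2 fold change 2.09, SE 0.46, adjusted p 0.00698), and its fold change was 1.18 (adjusted p 0.0243) without homozygous KO replicate 2. The chemokine receptor Cxcr2, through which neutrophils leave the marrow, was at 0.391, 2.87 and 1.94 CPM against 0.0675 to 0.337 CPM. Its log2 fold change was 3.66 (SE 0.71, adjusted p 0.00333), or 3.07 without homozygous KO replicate 2 and 4.37 without wild type 2. The formyl peptide receptor Fpr1 had 3.85 (SE 0.89, adjusted p 0.00872), or 6.38 without wild type 4, and Trem1 had 3.79 (SE 0.79, adjusted p 0.0052), or 2.97 without homozygous KO replicate 2 and 4.74 without wild type 4. Stfa2, a stefin, had 4.25 (SE 0.59, adjusted p 0.000447), but it belongs to a family of near-identical copies whose reads may be split, so its value is uncertain. Ly6g, the defining surface marker of mouse neutrophils, was too low to be tested, at 0.00868, 0.147 and 0.0776 CPM in homozygous KO, 0.00999 to 0.0109 CPM in heterozygous KO and 0, 0, 0.0675 and 0 CPM in wild type, so that the groups overlapped. Cxcr1 was also too low to be tested. It was at 0 in all 3 homozygous KO libraries, 0 to 0.0105 CPM in heterozygous KO and 0 to 0.0113 CPM in wild type.

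Among the genes of that list that fell were Padi4 (log2 fold change -1.88, SE 0.17, adjusted p 1.88e-05) and G0s2 (-0.81, SE 0.22, adjusted p 0.0205). Padi4 encodes a histone-modifying deiminase that other white blood cells make as well. Padi4 was at 2.94 to 5.17 CPM in homozygous KO and 14.1 to 16.5 CPM in wild type, without overlap. Gsr (glutathione reductase, made by most cells) rose by 0.41 (SE 0.13, adjusted p 0.0407), and it was no longer called without homozygous KO replicate 1, 2 or 3 or wild type 3 or 4, with log2 fold changes of 0.34 to 0.45 and adjusted p of 0.0656 to 0.113.

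**Figure D3:**
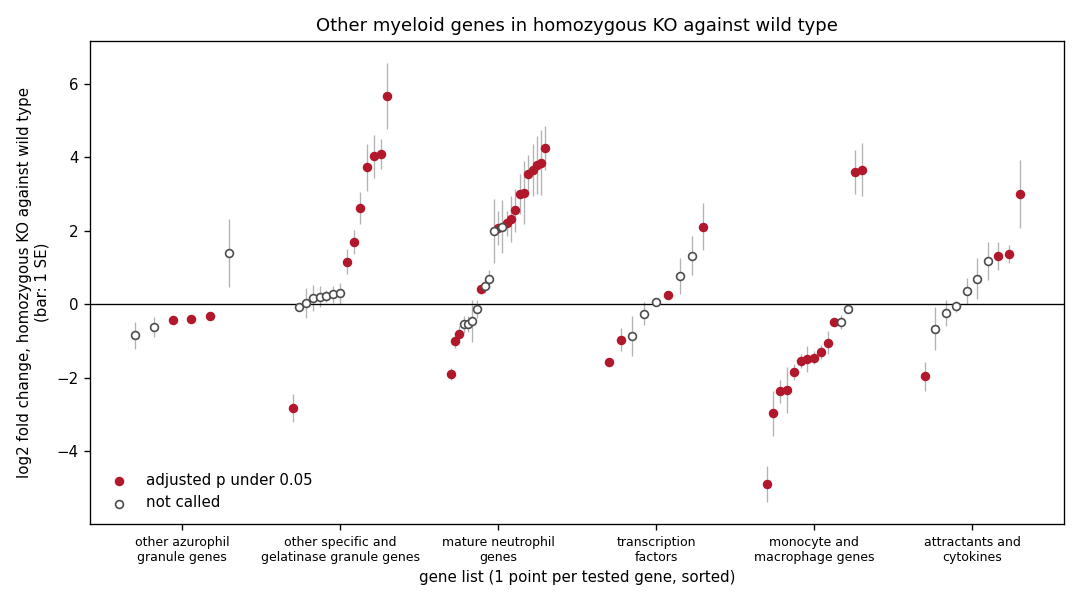
Homozygous KO against wild type, as the log2 fold change of every tested gene in 6 lists that hold no member, sorted within each list, with a bar of 1 SE and filled points for adjusted p under 0.05. Genes called above 0 number 7 of 15 in the specific and gelatinase list and 0 of 6 in the azurophil list. In the monocyte and macrophage list they number 2 of 15, and over all genes the share is 12.5%. Il17a is left out because it had no read in homozygous KO. Some low genes were tested only through their homozygous KO libraries.

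Transcription factors of granulocytes moved in both directions. Cebpe, which drives the secondary granule genes, was at 0.243, 0.812 and 0.388 CPM in homozygous KO and 0.0450 to 0.230 CPM in wild type (log2 fold change 2.11, SE 0.65, adjusted p 0.0336). That call was lost without homozygous KO replicate 2 (1.51, adjusted p 0.157) or replicate 3 (2.25, adjusted p 0.054), and without wild type 1 (1.92, adjusted p 0.0816), 2 (2.07, adjusted p 0.0758) or 3 (1.81, adjusted p 0.0824), and the value was 2.96 without wild type 4. Gfi1, also a factor of thymocytes, rose by 0.24 (SE 0.06, adjusted p 0.010), from 103 to 120 CPM in wild type to 128 to 141 CPM. Irf8, which favours monocytes and dendritic cells over granulocytes, fell from 19.4 to 22.4 CPM to 6.44 to 7.49 CPM, a log2 fold change of -1.58 (SE 0.09, adjusted p 1.22e-06). Spi1 (PU.1) had -0.96 (SE 0.32, adjusted p 0.0458), and was no longer called without homozygous KO replicate 1 or 3 or any of the 4 wild types, with log2 fold changes of -1.03 to -0.65 and adjusted p of 0.051 to 0.127. Runx1, which had the highest CPM of the 9, was not called (0.07, SE 0.07, adjusted p 0.478).

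A list of cytokines and chemokines that act on neutrophils, which also holds the nuclear regulator Nfkbiz, had 11 tested genes. Of these 3 rose and 2 fell, beside 12.5% and 13.2% of all genes. Tnf was at 11.3, 19.9 and 15.1 CPM in homozygous KO and 4.27 to 8.0 CPM in wild type (log2 fold change 1.38, SE 0.25, adjusted p 0.00223). Cxcl2, a ligand of Cxcr2, was at 0.0694, 2.52 and 0.743 CPM against 0.0563 to 0.242 CPM, so that the groups overlapped. Its log2 fold change of 3.01 (SE 0.93, adjusted p 0.0346) was 1.55 (adjusted p 0.244) without homozygous KO replicate 2, and the call was also lost without wild type 1, 2 or 3 (2.69 to 3.03, adjusted p 0.0758 to 0.0875). Csf3, which encodes granulocyte colony-stimulating factor, was not called (-0.67, SE 0.58, adjusted p 0.441), and Cxcl1 was too low to be tested, at 0 to 0.0963 CPM over all libraries. Il17a, a T-cell cytokine that promotes the production of neutrophils, had no read in homozygous KO and was at 0.265 to 0.556 CPM in wild type, at least 12.9-fold lower when set against the highest floor of 3 counts among the homozygous KO libraries. Il17f fell by 1.95 (SE 0.40, adjusted p 0.00435) on the log2 scale. Nfkbiz and Cxcl12, which had the highest CPM of this list, were not called (-0.06, adjusted p 0.802, and 0.36, adjusted p 0.501).

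Monocytes and macrophages, the nearest relatives of neutrophils in the tissue, went the other way in most of their genes. Of 15 tested, 11 fell and 2 rose, beside 13.2% lower and 12.5% higher of all genes. The summed level of the list was 134 to 165 CPM in homozygous KO and 189 to 240 CPM in wild type. In heterozygous KO it was 177 to 199 CPM. F13a1 made up most of this sum in every library, at 101 to 131 CPM in homozygous KO and 118 to 149 CPM in wild type. The sum therefore mostly follows that gene. Csf1r, the receptor of macrophage colony-stimulating factor, fell by 1.45 (SE 0.18, adjusted p 0.000194) and Timd4, a receptor of tissue macrophages for dying cells, by 4.89 (SE 0.49, adjusted p 4.4e-05) on the log2 scale. Cd68 fell by 0.48 (SE 0.09, adjusted p 0.00304), and F13a1 was not called (-0.12, adjusted p 0.387). The genes that rose were Cd14, which neutrophils can also express (3.66, SE 0.72, adjusted p 0.00353), and the scavenger receptor Marco (3.6, SE 0.59, adjusted p 0.00126). Cd14 had 2.80 without homozygous KO replicate 2 and 4.47 without wild type 4.

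Other contents of the libraries were set beside the granule genes. The fibroblast list summed to 5.87, 18.0 and 9.25 CPM in homozygous KO, with the animals in the same order as the granule genes, and to 2.04 to 7.08 CPM in the other 7 libraries, and 2 of its 4 genes rose. These were Col1a1 and Col1a2, and in both the homozygous KO and wild-type values overlapped. The call of Col1a1 was lost without homozygous KO replicate 2 (log2 fold change 0.78, edgeR adjusted p 0.195). It was also lost without wild type 1, 3 or 4 (1.25 to 1.26, edgeR adjusted p 0.0763 to 0.0903). The erythroid list summed to 2186, 2334 and 235 CPM in homozygous KO, 206 to 607 CPM in heterozygous KO and 361 to 1881 CPM in wild type, so that homozygous KO replicate 3 was high for the granule genes and low for the erythroid sum. Globin genes had the highest CPM of that list. Of its 10 tested genes 1 rose, Klf1, and all 10 log2 fold changes against wild type were positive. Klf1 was at 2.46, 1.63 and 0.676 CPM in homozygous KO and 0.144 to 0.430 CPM elsewhere (log2 fold change 2.63, SE 0.47, edgeR adjusted p 0.00203). The thymic epithelial list was at 88.6 to 197 CPM in homozygous KO and 73.5 to 167 CPM elsewhere, with 2 of 8 genes higher and 1 lower. Over all genes 12.5% were called higher and 13.2% lower in homozygous KO against wild type. The part of the fibroblast, erythroid and epithelial contents in the result was not tested.

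**Figure D4:**
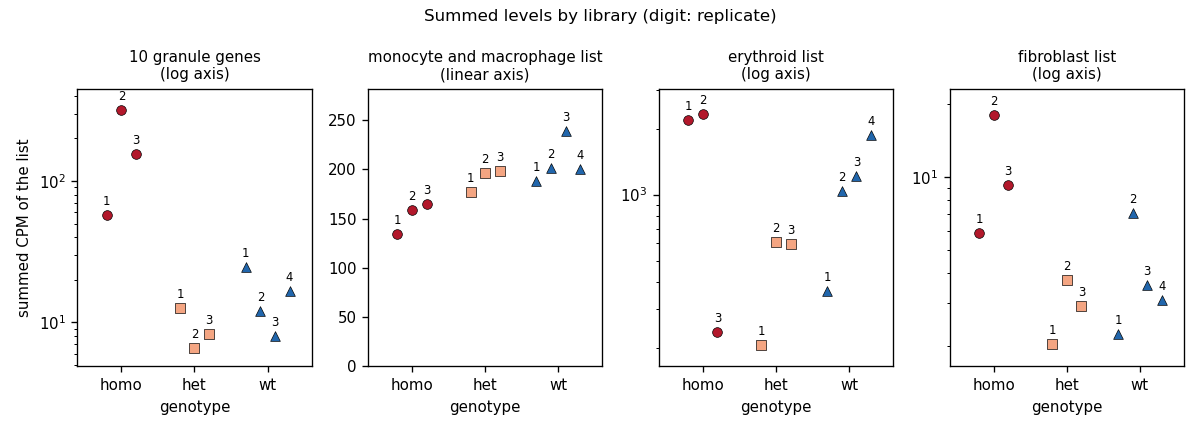
Summed CPM in each library for the 10 granule genes, the monocyte and macrophage list, the erythroid list and the fibroblast list, by genotype, with the digit giving the replicate, a linear axis from 0 for monocytes and macrophages and log axes for the other panels. Granule genes are at 57.3 to 319.5 CPM in homozygous KO and 6.59 to 24.8 CPM elsewhere. The erythroid list has homozygous KO libraries at 2186, 2334 and 235 CPM. In every library F13a1, which was not called, makes up most of the monocyte and macrophage sum.

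The numbers of the animals split the libraries in a second way that crosses the genotypes, with 1 homozygous KO, 1 heterozygous KO and 3 wild types numbered 44 to 51 and 2, 2 and 1 numbered 56 to 63. Between homozygous KO and wild type the log2 differences of the 8 genes were 1.19 to 2.71 within the first block and 2.84 to 4.38 within the second, all positive. Against heterozygous KO they were 1.39 to 2.72 and 4.24 to 5.30. For heterozygous KO against wild type they were -1.13 to 0.96 and -1.43 to -0.87. With the block as a term in the fit, the values against wild type that moved by over 1.5 times were those of Retnlg (2.10), Trem1 (2.93), Cd14 (2.91), Marco (2.88) and Cxcl2 (1.78), of which Cxcl2 lost its call (edgeR adjusted p 0.153). Every within-block difference has an arm of 1 or 2 libraries, and the block and the animals within it cannot be told apart.

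The genes outside the list whose levels followed the members most closely from library to library were ranked by Pearson r with the mean z-score of the 10 members over 10 libraries, after the group means were removed. They were Dennd4c (0.980), Mmp17 (0.972), Hibadh (0.965), Dennd1b (0.961), Arhgap10 (0.952), Dhx40 (0.947), Slc14a1 (0.936), Smarca2 (0.935), Relch (0.931) and Phc3 (0.927). None is on a list used here, but genes of low average level and predicted genes were left out of the ranking. That cut took out neutrophil genes such as Cxcr2, Fpr1 and Trem1. With the group means kept, r over the 10 libraries was negative for Hibadh (-0.574), Dennd1b (-0.182), Slc14a1 (-0.596), Smarca2 (-0.331) and Relch (-0.227). It was positive for the other genes named. The ranked genes are the extreme of 10 points over many genes and are named as a description only.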

How the data were processed

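Whole-thymus RNA of 10 mice was measured. The authors deposited 1 table of raw read counts per gene, unnormalized, with 1 column per animal. The submitters' processing notes name CASAVA, STAR 2.4.1d, HTSeq 0.6.1p1 and the mouse builds NCBIM37 and mm9, whereas the study's methods describe a BWA-based pipeline with a human reference. The annotation release and the strand setting are not given in the sources used here, so overlapping, antisense and near-identical genes are uncertain. Symbols and positions came from GENCODE M21 (GRCm38), which matched 30204 of 34467 Ensembl identifiers, and may differ from the counting annotation. Features without one stayed in the library totals.

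Counts were tested with edgeR 4.0.16 (R 4.3.3) with TMM scaling, filterByExpr, and glmQLFit and glmQLFTest in 1 fit over the 3 groups. Genes with a Benjamini-Hochberg adjusted p under 0.05, over all genes tested, were called. The SE is the log2 fold change over the square root of F. CPM was scaled by TMM, and log2 CPM used a prior count of 2. The scripts were tested on simulated data. Each column was mapped to its animal by the title. Within-group pairs of libraries differed by more than sampling noise (chi-square over genes of 12.9 to 112 per degree of freedom), so each library counted as 1 replicate.

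The members and gene lists were chosen with earlier results of these data known. Genes were named by rule: every member, and, per other list, the 3 tested genes with the highest CPM, the 3 called genes with the largest log2 fold change, and a few preset neutrophil genes. One gene that the rule names is not reported here. Lists of other cell types are given by counts and sums where they touch a result. The alternatives were other scalings, no filter, DESeq2 1.42.0, fewer libraries, blocks and a covariate.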

Additional observations from a re-analysis of the deposited data

Results flagged for a closer look

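A value is listed here when, among the 4 wild types, the gap of the highest or lowest library to its nearest neighbour exceeded Dixon's 95% critical share of the group's range. Chance marks about 1 in 20 groups in this way, and 7 of 84 genes examined were marked, of which 0 were among the 10 granule genes. Fcnb was highest in wild type 1, at 0.123 CPM, and Cd68 was lowest there, at 8.64 CPM. Cd79b (23.1 CPM), Ms4a1 (8.04 CPM) and Col1a1 (3.66 CPM) were highest in wild type 2. In wild type 4, Cd14 was highest, at 0.399 CPM, and Csf3r was lowest, at 0.556 CPM.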

How the results depend on the processing

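The replicate numbers of the titles were not taken to pair the animals. Deviations of same-numbered libraries from their group means had r from -0.104 to 0.225 over 9 pairs. Differently numbered pairs were not computed beside them, so these r cannot exclude a pairing. With the replicate number as a block 3 of 36 results changed sign, all uncalled. They were Elane in homozygous KO against wild type (-0.77), Mmp8 in heterozygous KO against wild type (0.11) and Mpo in homozygous KO against heterozygous KO (-0.40), and the block lost the calls of Gsr (0.35) and Cxcl2 (3.09).

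For the 8 genes higher in homozygous KO, 246 of 248 alternatives of the homozygous comparisons kept direction and call. The exceptions are the calls of Retnlg with 2 wild types. The 8 genes are those called in the same comparisons, and the alternatives share libraries, so this count is a description only. Called members numbered 7 to 9 against wild type, 0 in heterozygous KO and 8 to 9 between the knockouts. The other named genes kept direction and call in 608 of 680 alternatives, lost a call in 59 and changed sign in 13. Of the other neutrophil genes 19 were called with wild type 3 and 4 alone, 25 to 29 with 1 library left out against wild type, 20 to 32 between the knockouts (20 without heterozygous KO replicate 2, against 30), and DESeq2 called 1 in heterozygous KO. Of values that stayed called, Fcnb was 4.45, Fpr1 5.51, Trem1 5.34, Cd14 4.63 and Cxcr2 2.90 with wild type 1 and 2 alone, and Fcnb was 7.58 and Cxcr2 4.6 with wild type 3 and 4 alone. Over all genes 2670 were called in homozygous KO against wild type with wild type 3 and 4 alone, in place of 5030. In heterozygous KO against wild type the number was 58 by DESeq2, 5 with the replicate block and 2 to 6 with 1 library left out, in place of 3.

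Changes of sign were otherwise those of uncalled genes, and the cause was not tested. In homozygous KO against wild type Elane was -0.058 with library totals, -0.041 by DESeq2, -0.29 with the block of animal numbers, -0.84 with wild type 1 and 2 alone, -0.94 with the level of Xist, a transcript of the inactive X, as a covariate, and -2.04 to 0.69 with 1 library left out. Lyz2 was -0.060 with the block of animal numbers and -0.088 to 0.61 with 1 library left out, Itgam -0.051 to 0.51 and Prtn3 -0.30 to 1.88. Runx1 was -0.020 with library totals and -0.026 with wild type 1 and 2 alone. Nfkbiz was 0.016 with the replicate block, 0.057 with wild type 1 and 2 alone and -0.20 to 0.098 with 1 library left out. Cxcl12 was -0.019 with the block of animal numbers and -0.014 to 0.58 with 1 library left out, and Csf3 was 0.072 with wild type 3 and 4 alone. In heterozygous KO against wild type Elane was 0.36 and Mmp8 0.076 with wild type 3 and 4 alone, and Mmp8 was -0.95 to 0.011 with 1 library left out. Between the knockouts, with 1 library left out, Mpo was -2.49 to 0.92 and Elane -0.80 to 2.44. The alternatives for genes outside the members were added after the data were seen. Elane, Ly6g and the wild-type Fcnb are limited by depth, and with 3 or 4 animals a group the heterozygous intervals stay wide.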

Other observations

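Genes that neutrophils, macrophages and inflamed epithelia share were read from a further list of 7, of which 6 were tested. In homozygous KO against wild type 4 rose and 0 fell, beside 12.5% and 13.2% of all genes. Wfdc17, a secreted whey acidic protein of myeloid cells, was at 0.373, 2.20 and 0.831 CPM in homozygous KO and 0 to 0.0484 CPM in wild type (log2 fold change 5.52, SE 0.91, edgeR adjusted p 0.00126). Lrg1, a glycoprotein also stored by neutrophils, was at 0.226, 2.05 and 1.03 CPM against 0 to 0.206 CPM (log2 fold change 3.44, SE 0.84, edgeR adjusted p 0.0119). Both had the animals in the order of the granule genes. Wfdc17 and Lrg1 passed the filter on low counts only through homozygous KO, so their calls are a description. Slpi, a protease inhibitor, rose by 2.06 (SE 0.55, edgeR adjusted p 0.0183) and Pigr, the immunoglobulin transporter of epithelia, by 1.52 (SE 0.49, edgeR adjusted p 0.0393) on the log2 scale. Saa3, an acute-phase gene, was not called (-0.26, SE 0.65, edgeR adjusted p 0.800).

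Of 8 tested eosinophil genes 0 rose and 1 fell, beside 12.5% and 13.2% of all genes, and 5 of the 8 log2 fold changes were positive, with a median of 0.36. The gene that fell was the receptor Ccr3 (log2 fold change -3.39, SE 0.93, edgeR adjusted p 0.021). Prg2, the major basic protein of their granules, was at 1.13, 4.43 and 0.122 CPM in homozygous KO and 0.0675 to 1.27 CPM in wild type, so that the groups overlapped (log2 fold change 1.30, SE 1.2, edgeR adjusted p 0.467). Of 3 tested mast cell and basophil genes 2 fell. Cpa3, mast cell carboxypeptidase, was at 0.235 to 0.366 CPM in homozygous KO and 4.53 to 11.4 CPM in wild type (log2 fold change -4.72, SE 0.34, edgeR adjusted p 5.66e-06), and Kit, also made by thymic progenitors, had -0.96 (SE 0.20, edgeR adjusted p 0.00474).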
